A study of Homo sapiens with 16 samples.

Results

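Origin licensing was followed through 10 genes in MOLM-13 cells, a line from human acute myeloid leukaemia: ORC1, CDC6, CDT1, the helicase subunit genes MCM2, MCM3, MCM4, MCM5, MCM6 and MCM7, and MCM10. The genes were taken by symbol from a table of 60669 genes, 1 row each, and all 10 passed the filter on low counts that kept 16555 genes for testing. The cells had been treated for 4 days in 4 ways, with 4 RNA-seq libraries each. In the combination a PRMT5 inhibitor and an EZH2 inhibitor were given together, at 1 µM each. The other groups received the PRMT5 inhibitor (PRMT5i) at 1 µM, the EZH2 inhibitor (EZH2i) at 1 µM, or DMSO at 0.005%. The labels name neither compound, and do not say whether the inhibitor-treated cells also received DMSO or whether replicates were separate cultures, so p-values measure the spread between these libraries. PRMT5 methylates arginines in histones and many other proteins, and EZH2 is the enzyme of polycomb repressive complex 2 that methylates histone H3.

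Licensing is the step that makes a stretch of DNA ready to replicate once, and only once, per cell cycle. The origin recognition complex (ORC) binds DNA, CDC6 joins it, and CDT1 brings the ring of MCM2 to MCM7, which is loaded around the DNA as an inactive double ring. The ring becomes the working helicase in S phase, when CDC45 and the GINS complex join it and MCM10 helps to switch it on. Geminin, the product of GMNN, binds CDT1 and blocks further loading. Several of these genes are textbook targets of the E2F transcription factors and are expressed most strongly around the entry into S phase of dividing cells.

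All 10 genes were lower with PRMT5i than with DMSO, to between 34.1% (ORC1) and 51.5% (MCM6) of the DMSO level in the fitted model. All 10 were also lower in the combination than in DMSO, to between 51.6% (ORC1) and 70.9% (MCM6). The combination was less low than PRMT5i alone: 7 of the 10 genes were higher in the combination than with PRMT5i, by 1.26-fold (MCM3) to 1.52-fold (ORC1). With EZH2i alone, ORC1 and MCM4 were higher than in DMSO, by 1.26-fold and 1.27-fold, and the other 8 genes did not pass the test. Calls are at an adjusted p under 0.05 in edgeR's quasi-likelihood test, fitted once to all 16 libraries and adjusted over 16555 genes.

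The RefSeq promoter windows of GRCh38.p14 were searched for letters of the E2F type (TTTGGCGC, TTTCCCGC, TTTCGCGC and TTTGCCGC, on both strands). Only these exact letters were counted, so a window without a match can still hold a near form. Each window holds 300 bases across an annotated gene start. Windows were found for 8 of the 10 genes, all but MCM4 and MCM5, with 3 for MCM7. By gene, 6 of these 8 held a match, against 658 of the 10107 genes tested that have a window. Of the 10 windows 6, or 60.0%, held a match, against 3.32% of all 35116 windows and 4.79% of the 14690 windows of genes tested here. Of them 5 are shown here 5′ to 3′ on the strand of their gene, with matched letters in capitals, because they span the range found. MCM6 has matches in 2 places, MCM2, MCM3 and CDC6 have matches within a few bases of the start, and ORC1 has none.
MCM6: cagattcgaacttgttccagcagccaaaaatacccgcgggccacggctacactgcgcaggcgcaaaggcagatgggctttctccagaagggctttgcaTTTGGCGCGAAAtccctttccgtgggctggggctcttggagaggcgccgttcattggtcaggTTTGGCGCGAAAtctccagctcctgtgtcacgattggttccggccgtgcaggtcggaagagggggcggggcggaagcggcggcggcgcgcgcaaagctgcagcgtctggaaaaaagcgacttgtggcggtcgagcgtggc
MCM2: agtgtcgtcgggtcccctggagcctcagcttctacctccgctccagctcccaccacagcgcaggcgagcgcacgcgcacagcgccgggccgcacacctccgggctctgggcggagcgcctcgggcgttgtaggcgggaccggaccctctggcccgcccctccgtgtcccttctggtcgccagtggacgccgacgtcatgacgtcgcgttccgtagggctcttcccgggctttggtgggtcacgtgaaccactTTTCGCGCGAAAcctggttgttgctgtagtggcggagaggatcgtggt
MCM3: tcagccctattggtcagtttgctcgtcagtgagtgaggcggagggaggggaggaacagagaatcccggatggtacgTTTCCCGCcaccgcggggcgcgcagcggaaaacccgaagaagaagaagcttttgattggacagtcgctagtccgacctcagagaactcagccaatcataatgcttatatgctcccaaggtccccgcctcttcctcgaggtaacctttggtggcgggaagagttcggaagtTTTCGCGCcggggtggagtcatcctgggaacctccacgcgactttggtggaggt
CDC6: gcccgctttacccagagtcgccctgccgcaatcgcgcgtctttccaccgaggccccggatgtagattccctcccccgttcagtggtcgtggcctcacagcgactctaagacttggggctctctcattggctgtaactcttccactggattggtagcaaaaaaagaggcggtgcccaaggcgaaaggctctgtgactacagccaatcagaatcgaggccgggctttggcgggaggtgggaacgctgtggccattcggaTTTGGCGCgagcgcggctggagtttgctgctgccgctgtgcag
ORC1: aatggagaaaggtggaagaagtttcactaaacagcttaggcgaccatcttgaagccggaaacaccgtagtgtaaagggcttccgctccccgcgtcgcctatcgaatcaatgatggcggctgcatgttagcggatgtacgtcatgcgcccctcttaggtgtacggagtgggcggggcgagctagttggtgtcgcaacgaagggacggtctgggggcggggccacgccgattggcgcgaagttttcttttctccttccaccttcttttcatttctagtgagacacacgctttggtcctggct

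The MCM6 window is chr2:135876394-135876693 on the minus strand, MCM2 is chr3:127598161-127598460 on the plus strand, and MCM3 is chr6:52284693-52284992 on the minus strand. The CDC6 window is chr17:40287629-40287928 on the plus strand, and that of ORC1 is chr1:52404374-52404673 on the minus strand. In MCM6 the run TTTGGCGCGAAA occurs in 2 places, and in each a TTTGGCGC on the strand of the gene overlaps a TTTCGCGC read on the opposite strand. MCM2 holds the run TTTCGCGCGAAA, which is TTTCGCGC on both strands. MCM3 holds TTTCCCGC and TTTCGCGC, the second beginning 4 bases before the gene start, and the TTTGGCGC of CDC6 begins 8 bases after it. CDT1, not shown, holds GCGGGAAA, which is TTTCCCGC on the opposite strand, 1 of the 3 MCM7 windows holds a match in 2 places, and MCM10 holds none. The CCAAT box, searched as CCAAT on both strands, was found in 8 of the 10 windows, or 80.0%, those of ORC1 and MCM10 among them and those of MCM2 and CDT1 not, against 34.6% of all windows. Every MCM7 window held it, so that gene counts more than once. By gene it was found in 6 of 8, against 4349 of the 10107 genes tested that have a window. A match is a description of the letters only, and a window without one says nothing of which factors bind the gene.

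Each library held between 31.1 M and 52.9 M expected counts (M, 10 to the power of 6). Levels are given as CPM, counts per M of library size after scaling by trimmed means (TMM). The 10 genes together took 0.125% ± 0.00141 of the counts in combination libraries, 0.0863% ± 0.00429 in PRMT5i libraries, 0.236% ± 0.0147 in EZH2i libraries and 0.192% ± 0.0314 in DMSO libraries (SD, n = 4 each). The DMSO group spread most: its highest library exceeded its lowest by a median of 1.31-fold over the 10 genes, against 1.12-fold in the combination, 1.21-fold with PRMT5i and 1.21-fold with EZH2i. DMSO replicate 1 was the lowest DMSO library for MCM4, MCM6 and CDT1 and DMSO replicate 2 the highest, so results that rest on them are given with and without these libraries. DMSO replicate 1 also had a mitochondrial share of 1.7% of counts, against 0.213% to 0.518% in the other DMSO libraries, and the part of that difference in the results was not tested. As for the labelled cell type, all 8 myeloid leukaemia markers (CD33, SPI1, CEBPA, FLT3, MPO, MEIS1, HOXA9 and ANPEP) passed the filter. They summed to 1410 to 1460 CPM in the combination, 1620 to 1700 CPM with PRMT5i, 1050 to 1090 CPM with EZH2i and 1240 to 1430 CPM in DMSO. ANPEP was at most 0.944 CPM in any library, so passing the filter alone says little of a level. Of 5 markers of T and NK cells 2 passed, CD3D and NKG7, with a summed level of the list of 23.3 to 28.9 CPM in the combination, 25.6 to 28.3 CPM with PRMT5i, 25.2 to 35 CPM with EZH2i and 24.1 to 29.7 CPM in DMSO, and CD2 was at 0 in all 16 libraries. Of 5 markers of epithelium and fibroblasts 1 passed, COL1A1, with at most 1.04 CPM for the list in any library, and CDH1 was at 0 in all. In bulk RNA, fewer dividing cells and less RNA of these genes per cell cannot be told apart.

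**Figure D1:**
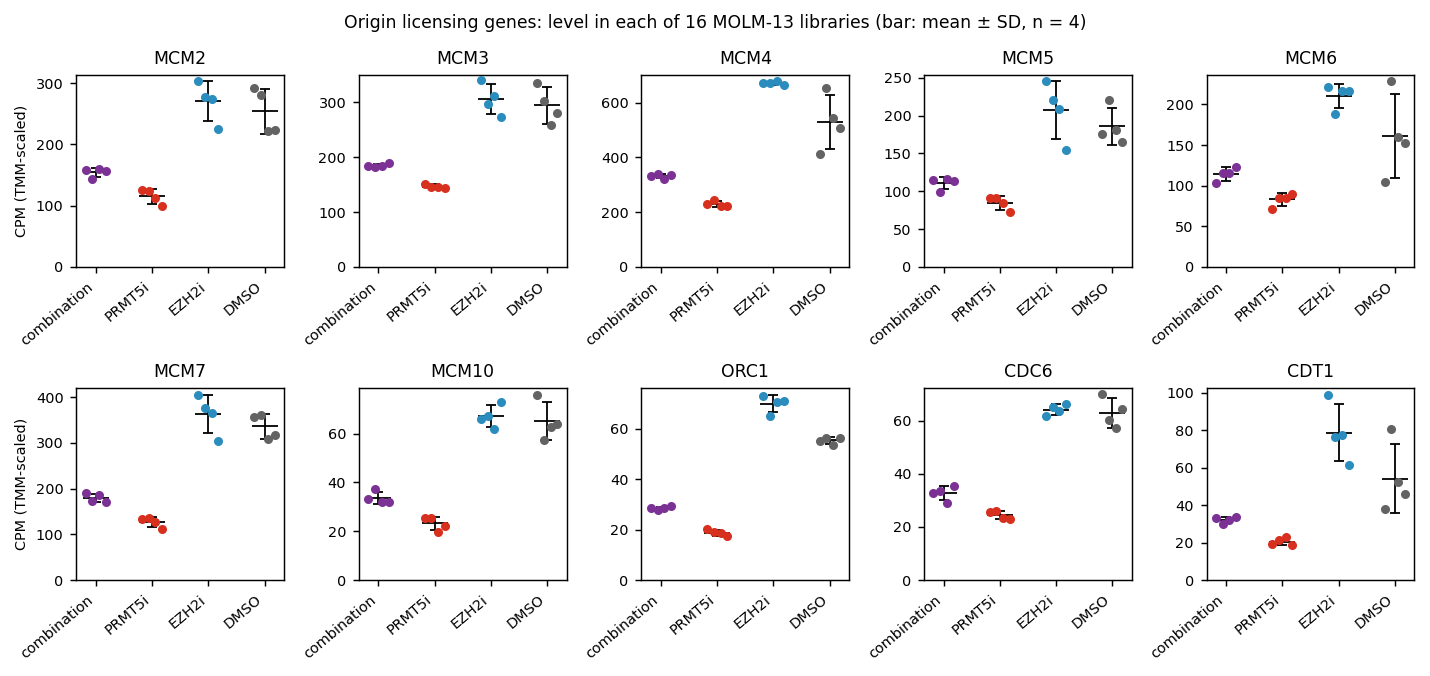
Level of each licensing gene in CPM (y axis, linear) in the 4 libraries of each group, with the mean and SD as bars. Every PRMT5i library lies below every DMSO library for all 10 genes, and the DMSO libraries of MCM6 spread from 104 to 229 CPM.

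ORC1 encodes the largest ORC subunit, an ATPase that comes and goes with the cell cycle, and lies at chr1:52372829-52404459 (GENCODE release 29, minus strand). Replicates 1 to 4 measured 28.6, 27.9, 28.5 and 29.2 CPM in the combination, 20.3, 19.1, 18.6 and 17.4 CPM with PRMT5i, 73, 64.9, 70.6 and 71 CPM with EZH2i, and 55, 56.4, 53.6 and 56.4 CPM in DMSO. No 2 of the 4 groups overlapped, and the order from low to high was PRMT5i, combination, DMSO, EZH2i. On the log2 scale the fold change was −1.55 ± 0.07 for PRMT5i against DMSO (SE; edgeR adjusted p = 5.32e-10) and −0.95 ± 0.07 for the combination against DMSO (edgeR adjusted p = 8.29e-08). EZH2i against DMSO gave 0.34 ± 0.07 (edgeR adjusted p = 0.0102). Of the 10 genes ORC1 had the tightest DMSO group, with the highest library 1.05-fold above the lowest.

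The loading factors CDC6 and CDT1 followed ORC1 under PRMT5i. CDC6, an ATPase that joins ORC to form the site on which the ring is loaded, lies at chr17:40287633-40304657 on the plus strand. Its replicates 1 to 4 measured 32.8, 33.6, 29 and 35.4 CPM in the combination, 25.8, 26.1, 23.3 and 22.9 CPM with PRMT5i, 61.6, 65.3, 63.5 and 66.3 CPM with EZH2i, and 70, 60.1, 57.1 and 64.3 CPM in DMSO. The EZH2i and DMSO libraries overlapped, and both PRMT5i-treated groups lay apart from them. The fold change of PRMT5i against DMSO was −1.36 ± 0.09 on the log2 scale (SE; edgeR adjusted p = 1.21e-08).

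CDT1, which carries the MCM ring to ORC and CDC6, lies at chr16:88803213-88809258 on the plus strand. It measured 33, 30, 31.9 and 33.5 CPM in the combination, 19.2, 21.4, 22.8 and 19 CPM with PRMT5i, 98.7, 76.5, 77.7 and 61.6 CPM with EZH2i, and 37.8, 80.6, 52.6 and 45.8 CPM in DMSO. The DMSO libraries differed among themselves by 2.13-fold and overlapped those of EZH2i, while all PRMT5i libraries lay below all combination libraries and these below all DMSO libraries. The log2 fold change was −1.40 ± 0.18 for PRMT5i against DMSO (SE; edgeR adjusted p = 1.91e-05). With EZH2i it was 0.54 ± 0.18, which did not pass (edgeR adjusted p = 0.0802). That value turned on DMSO replicate 2: without it the EZH2i fold change was 0.79 (edgeR adjusted p = 0.00148), and without DMSO replicate 1 it was 0.41 (edgeR adjusted p = 0.168).

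The 6 subunits of the helicase ring were all lower with PRMT5i, and every PRMT5i library lay below every DMSO library for each of them. MCM2, whose tail also binds histones, lies at chr3:127598223-127622436 on the plus strand. It measured 158, 143, 160 and 157 CPM in the combination, 126, 124, 113 and 99.5 CPM with PRMT5i, 304, 277, 275 and 226 CPM with EZH2i, and 292, 280, 222 and 224 CPM in DMSO. The EZH2i and DMSO ranges covered each other nearly whole, and the log2 fold change of PRMT5i against DMSO was −1.14 ± 0.11 (SE; edgeR adjusted p = 8.18e-07). A noncoding gene on the other strand, AC023593.1, covers 22.7% of the exon bases of MCM2 and had 0 counts in all 16 libraries.

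MCM7, with MCM4 and MCM6 part of a subcomplex that can unwind DNA on its own, had the largest fold change of the 6 subunits under PRMT5i, at −1.40 ± 0.09 on the log2 scale (SE; edgeR adjusted p = 2.01e-08). Its libraries measured 190, 172, 185 and 171 CPM in the combination, 133, 136, 127 and 112 CPM with PRMT5i, 405, 377, 366 and 305 CPM with EZH2i, and 357, 360, 308 and 318 CPM in DMSO. The gene lies at chr7:100092728-100101940 on the minus strand and shares 8.94% of its exon bases with AP4M1 on the other strand. Whether reads were counted by strand is not stated in the labels, so reads of the shared bases cannot be assigned. AP4M1 measured 5.62 to 7 CPM with PRMT5i and 8.32 to 10.7 CPM in DMSO, a small fraction of the MCM7 level in every group.

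MCM4, on chromosome 8, measured 332, 338, 320 and 334 CPM in the combination, 230, 244, 222 and 224 CPM with PRMT5i, 671, 671, 680 and 665 CPM with EZH2i, and 413, 652, 545 and 507 CPM in DMSO. The EZH2i libraries were almost level with one another and all above the DMSO libraries, of which replicate 2 came closest. The log2 fold change of PRMT5i against DMSO was −1.20 ± 0.10 (SE; edgeR adjusted p = 1.84e-07). With EZH2i it was 0.34 ± 0.10 (edgeR adjusted p = 0.0489), a value just inside the threshold.

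MCM6, at chr2:135839626-135876426 on the minus strand, had the smallest fold change of the 10 genes under PRMT5i and the widest DMSO group. It measured 103, 116, 115 and 123 CPM in the combination, 71.7, 85.3, 85.4 and 90.2 CPM with PRMT5i, 222, 188, 216 and 216 CPM with EZH2i, and 104, 229, 160 and 152 CPM in DMSO. DMSO replicate 1 lay inside the range of the combination and DMSO replicate 2 above every EZH2i library. The log2 fold change of PRMT5i against DMSO was −0.96 ± 0.16 (SE; edgeR adjusted p = 2.1e-04), and it was called whichever 1 of the 16 libraries was left out. That of the combination against DMSO was −0.50 ± 0.16 (edgeR adjusted p = 0.0238). Without DMSO replicate 2 this combination value was −0.28 (edgeR adjusted p = 0.0754), without DMSO replicate 1 it was −0.67 (edgeR adjusted p = 3.99e-04), and without combination replicate 1 it did not pass. With library totals in place of TMM scaling it was −0.39 (edgeR adjusted p = 0.12), and that scaling raised the median of all genes in this comparison by 0.13. In a fit of the 8 libraries compared it did not pass either (edgeR adjusted p = 0.0779).

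MCM3 and MCM5 are neighbours in the ring and had the same order of groups. MCM3 (chr6:52264009-52284881, minus strand) spanned 183 to 190 CPM in the combination, 143 to 152 CPM with PRMT5i, 274 to 341 CPM with EZH2i and 259 to 336 CPM in DMSO, with a log2 fold change of −1.01 ± 0.08 for PRMT5i against DMSO (SE; edgeR adjusted p = 1.34e-07). MCM5 (chr22:35400063-35425430, plus strand) spanned 99.4 to 116 CPM in the combination, 72.2 to 91 CPM with PRMT5i, 154 to 245 CPM with EZH2i and 165 to 221 CPM in DMSO, with −1.14 ± 0.13 (SE; edgeR adjusted p = 3.29e-06). For both genes the EZH2i and DMSO ranges overlapped widely, and the 2 groups with PRMT5i lay below both.

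MCM10 is no part of the ring: it binds the loaded helicase and DNA polymerase alpha and helps the ring to start unwinding. The gene lies at chr10:13161554-13211104 on the plus strand and measured 33.3, 37.1, 32 and 32.1 CPM in the combination, 25.5, 25.4, 19.9 and 22.1 CPM with PRMT5i, 66.1, 67.3, 61.9 and 73.1 CPM with EZH2i, and 75.9, 57.5, 62.6 and 63.9 CPM in DMSO. Its log2 fold change with PRMT5i, −1.48 ± 0.10 (SE; edgeR adjusted p = 2.8e-08), was second to that of ORC1 among the 10 genes. EZH2i and DMSO overlapped.

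Read over the 10 genes, PRMT5i against DMSO gave 10 of 10 lower, against 18.3% of all genes tested that were called lower, and a median log2 fold change of −1.28, against −0.0032 over all genes tested. No PRMT5i library overlapped a DMSO library for any of the 10, and 17.2% of all genes had such a gap in that direction. The 10 fold changes ran from −1.55 (ORC1) to −0.96 (MCM6), and their 95% intervals for ORC1, −1.69 to −1.42, and MCM6, −1.27 to −0.64, did not meet. Within the ring the interval of MCM7, −1.58 to −1.22, did not meet that of MCM3, −1.17 to −0.84. All 10 were called whichever 1 library was left out. In replicates 1 and 2 taken alone the 10 differences of mean log2 CPM were all below 0, with a median of −1.26, and in replicates 3 and 4 with a median of −1.24.

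For EZH2i against DMSO, 2 of the 10 genes were called higher, against 4.11% of all genes called higher. All 10 fold changes were above 0, with a median of 0.14 on the log2 scale, but those of MCM3, MCM10 and CDC6 fell below 0 when a single library was left out. In edgeR 4 of the 10 had an unadjusted p under 0.05, against 4467 of all 16555 genes in either direction. ORC1 and MCM4 were also the genes whose 2 groups did not overlap, and 5.48% of all genes had such a gap upward. ORC1 was called whichever 1 of the 16 libraries was left out, with an edgeR adjusted p of 0.00504 to 0.0342, but not with no filter on low counts (edgeR adjusted p = 0.064) or in a fit of the 8 libraries compared (edgeR adjusted p = 0.104). With 1 library left out, MCM4 was called only without DMSO replicate 2, at 0.46 (edgeR adjusted p = 0.00191), and lost the call when any other library was left out, with 0.25 (edgeR adjusted p = 0.0575) where DMSO replicate 1 was left out. Among the genes not called were CDT1, given above, and MCM6, at 0.38 ± 0.16 (SE; edgeR adjusted p = 0.143). MCM6 gave 0.60 without DMSO replicate 2 (edgeR adjusted p = 0.00371) and 0.23 without DMSO replicate 1 (edgeR adjusted p = 0.295). Without both of these DMSO libraries 4 genes were called, ORC1, MCM4, MCM6 and CDT1. For the other 6 genes the log2 values were 0.03 (CDC6), 0.05 (MCM10), 0.06 (MCM3), 0.09 (MCM2), 0.12 (MCM7) and 0.16 (MCM5). The 95% interval of CDC6 ran from −0.14 to 0.20 and that of MCM5 from −0.09 to 0.41, which gives an approximate range for these changes.

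**Figure D2:**
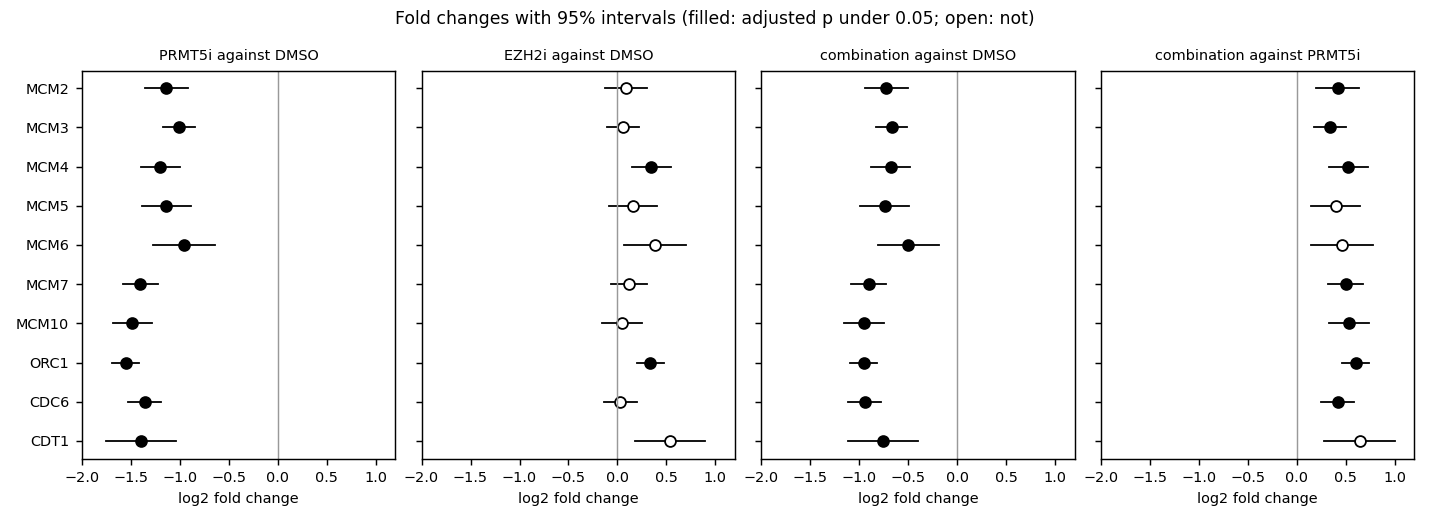
Log2 fold change of each licensing gene (x axis) with its 95% interval in 4 comparisons, filled where the edgeR adjusted p is under 0.05. All 10 points are filled and below 0 for PRMT5i and for the combination against DMSO, 2 are filled for EZH2i, and 7 are filled and above 0 for the combination against PRMT5i.

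In the combination against DMSO, 10 of 10 genes were lower, against 18.5% of all genes tested called lower, with a median log2 fold change of −0.75. The groups did not overlap for 9 of the 10, MCM6 being the exception, against 16.4% of all genes with such a gap downward. The values ran from −0.95 ± 0.07 (ORC1) to −0.50 ± 0.16 (MCM6), and those for PRMT5i from −1.55 (ORC1) to −0.96 (MCM6), with the same DMSO libraries under both. MCM10 gave −0.95 ± 0.10 (SE; edgeR adjusted p = 3.61e-06), CDC6 −0.94 ± 0.09 (edgeR adjusted p = 6.38e-07) and MCM7 −0.90 ± 0.09 (edgeR adjusted p = 2.23e-06). CDT1 gave −0.76 ± 0.18 (edgeR adjusted p = 0.00413). The other 4 subunit genes lay between −0.74 (MCM5) and −0.67 (MCM3). Against EZH2i, the combination was lower for 10 of 10 genes, against 14.6% of all genes called lower, with a median of −0.98 and values from −1.29 ± 0.18 (CDT1) and −1.29 ± 0.07 (ORC1) to −0.73 ± 0.08 (MCM3).

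What EZH2i added to PRMT5i is given by the combination against PRMT5i, a comparison without the DMSO libraries. Here 7 of the 10 genes were called higher, against 2.91% of all genes tested called higher, and the median log2 fold change was 0.48, against −4e-04 over all genes. For all 10 genes every combination library lay above every PRMT5i library, and 10.2% of all genes had such a gap upward. ORC1 had the smallest p, with 0.60 ± 0.07 on the log2 scale (SE; edgeR adjusted p = 2.55e-04), followed by MCM7 with 0.50 ± 0.09 (edgeR adjusted p = 0.00629), MCM4 with 0.52 ± 0.10 (edgeR adjusted p = 0.00771) and MCM10 with 0.53 ± 0.10 (edgeR adjusted p = 0.00786). These 4 genes were called whichever 1 library was left out. CDC6, at 0.42 ± 0.09 (edgeR adjusted p = 0.0115), lost the call without PRMT5i replicate 3 or 4.

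The calls for MCM2 and MCM3 were close to the threshold. MCM3 had 0.34 ± 0.08 (SE; edgeR adjusted p = 0.0301) and lost the call when any 1 of the 8 libraries compared was left out. MCM2 had 0.42 ± 0.11 (edgeR adjusted p = 0.0453) and lost it when any 1 of these 8, or EZH2i replicate 2 or 3, was left out. Not called were CDT1 with 0.64 ± 0.18 (edgeR adjusted p = 0.0623), MCM5 with 0.40 ± 0.13 (edgeR adjusted p = 0.0999) and MCM6 with 0.46 ± 0.16 (edgeR adjusted p = 0.14). CDT1 and MCM6 were called without DMSO replicate 1 or without DMSO replicate 2, whose spread enters the shared estimate. CDT1 was also called without EZH2i replicate 1 and MCM5 without EZH2i replicate 4. In a fit of the 8 libraries compared, all 10 were called.

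Whether EZH2i acted differently with and without PRMT5i was tested by the interaction, the log2 effect of adding EZH2i to PRMT5i minus the log2 effect of EZH2i on its own. None of the 10 genes passed, against 0.29% of all genes tested that did, in edgeR, and none in DESeq2. In edgeR 5 of the 10 had an unadjusted p under 0.05, against 1489 of all 16555 genes in either direction. All 10 values were above 0, from 0.08 ± 0.23 (MCM6) to 0.49 ± 0.15 (MCM10; SE, edgeR adjusted p = 0.285), and those of MCM6 and CDT1 were below 0 without DMSO replicate 2. The 95% interval was 0.20 to 0.77 for MCM10 and 0.07 to 0.46 for ORC1. CDC45, which joins the loaded ring when an origin fires and is not among the 10 genes, passed, with 0.64 ± 0.12 (SE; edgeR adjusted p = 0.0259). Its libraries measured 20.7, 20.2, 21.1 and 21.3 CPM in the combination, 14.8, 13.8, 13 and 11.2 CPM with PRMT5i, 49.2, 48.1, 50.1 and 43.9 CPM with EZH2i, and 47.1, 46.2, 46.7 and 48.7 CPM in DMSO.

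ORC1 was set against ORC2, a core ORC subunit, within each library. ORC2 measured 49.1, 47.6, 43.1 and 45.2 CPM in the combination, 49, 45.7, 43.6 and 44.7 CPM with PRMT5i, 39.6, 45.4, 43.4 and 49.9 CPM with EZH2i, and 45.2, 42.2, 47.9 and 51.1 CPM in DMSO, groups that overlapped throughout. The log2 ratio of ORC1 to ORC2 averaged −0.69 ± 0.09 in the combination, −1.28 ± 0.06 with PRMT5i, 0.65 ± 0.18 with EZH2i and 0.25 ± 0.13 in DMSO (SD, n = 4 each). The groups were separate in all 4 comparisons, as they were for ORC1 alone, so the ratio describes the same change and no p is given. The differences were −1.53 for PRMT5i against DMSO, 0.40 for EZH2i against DMSO, −0.94 for the combination against DMSO and 0.59 for the combination against PRMT5i.

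MCM2 was set against MCMBP in the same way; MCMBP binds the other ring subunits in place of MCM2. Their log2 ratio averaged 0.33 ± 0.11 in the combination, −0.03 ± 0.23 with PRMT5i, 1.04 ± 0.33 with EZH2i and 0.72 ± 0.27 in DMSO (SD, n = 4 each). It differed by −0.75 for PRMT5i against DMSO, −0.39 for the combination against DMSO and 0.36 for the combination against PRMT5i. The groups were separate in each of these, as they were for MCM2 alone, so no p is given for them. For EZH2i against DMSO the difference of 0.32 was within the spread (two-sided exact permutation p = 0.2, 0.24 after Benjamini-Hochberg adjustment over the 12 ratio tests).

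For CDT1 over GMNN, the gene of its inhibitor geminin, none of the 4 ratio comparisons passed. GMNN measured 38.6, 48.3, 35.9 and 40.2 CPM in the combination, 29.7, 30, 25.8 and 30.2 CPM with PRMT5i, 49, 48.5, 50.6 and 58.1 CPM with EZH2i, and 59.4, 42.6, 42.1 and 45.4 CPM in DMSO. All PRMT5i libraries lay below those of the other groups, with a log2 fold change of −0.71 ± 0.12 against DMSO (SE; edgeR adjusted p = 1.95e-04), and the combination was above PRMT5i by 0.50 ± 0.12 (edgeR adjusted p = 0.0266). The log2 ratio of CDT1 to GMNN averaged −0.34 ± 0.24 in the combination, −0.49 ± 0.22 with PRMT5i, 0.59 ± 0.38 with EZH2i and 0.15 ± 0.65 in DMSO (SD, n = 4 each). The difference of PRMT5i from DMSO was −0.64 (exact permutation p = 0.114, adjusted 0.171), and in DMSO the ratio alone spanned −0.65 to 0.92, with replicate 1 lowest and replicate 2 highest.

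**Figure D3:**
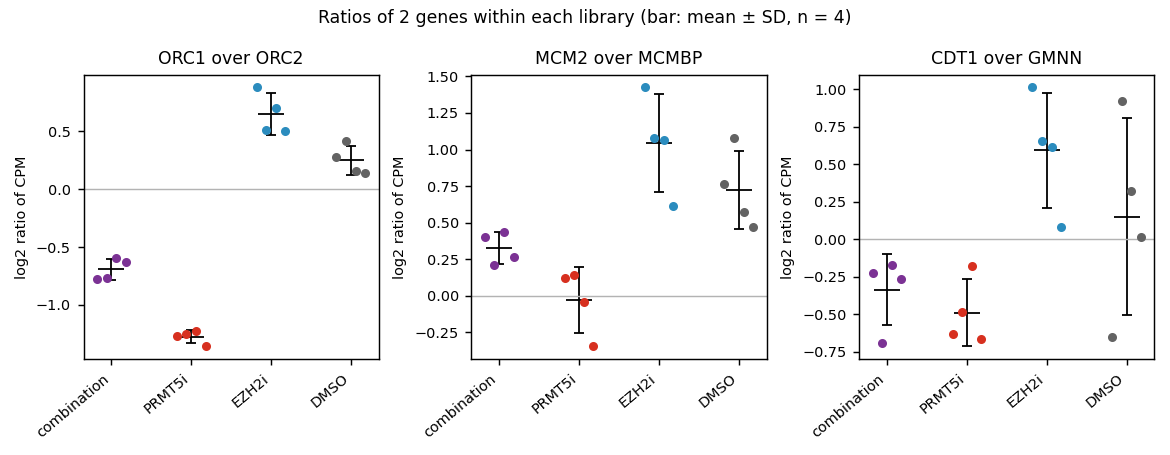
Log2 ratio of the CPM of 2 genes within each library (y axis), with the mean and SD of each group as bars. The groups of ORC1 over ORC2 are separate, from −1.28 with PRMT5i to 0.65 with EZH2i, while those of CDT1 over GMNN overlap.

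The other ORC subunits did not all follow ORC1. With PRMT5i against DMSO, 2 of the 5 genes ORC2 to ORC6 were lower and 1 higher, with a median log2 fold change of −0.03. Of all 16555 genes tested 18.3% were called lower there and 2824 higher. LRWD1, which binds ORC without being a subunit and stands on the same list, was lower, at −0.56 ± 0.11 (SE; edgeR adjusted p = 6.25e-04), and with it the list had 3 of 6 lower and a median of −0.21. ORC6, the smallest subunit, was lower as ORC1 was. It measured 14.7, 14.1, 11.1 and 12.8 CPM in the combination, 10.9, 10.3, 9.77 and 10.2 CPM with PRMT5i, 23, 26.1, 25.3 and 20.7 CPM with EZH2i, and 36.3, 24, 25.1 and 25.2 CPM in DMSO, a log2 fold change of −1.42 ± 0.13 for PRMT5i against DMSO (SE; edgeR adjusted p = 3.68e-07). The subunit genes ORC3, at −0.38 ± 0.13 (edgeR adjusted p = 0.0283), and ORC5, at 0.28 ± 0.11 (edgeR adjusted p = 0.0468), changed little and in opposite directions. ORC2, at −0.03 ± 0.09, and ORC4, at 0.16 ± 0.15, did not pass. None of the 6 was called in the combination against PRMT5i, where 2.91% of all genes were called higher and the median of ORC2 to ORC6 was 0.13.

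Genes related to the MCM ring but outside it gave 4 of 5 lower with PRMT5i against DMSO, against 18.3% of all genes tested, with a median log2 fold change of −0.39. MCM8, which forms a second, separate helicase with MCM9 that acts in DNA repair, was lower by more than its partner: MCM8 gave −1.26 ± 0.10 (SE; edgeR adjusted p = 8.98e-08) and MCM9 −0.38 ± 0.09 (edgeR adjusted p = 0.00235), with 95% intervals that did not meet. MCMBP gave −0.39 ± 0.09 (edgeR adjusted p = 0.0029). In the combination against PRMT5i 2 of these 5 were higher, against 2.91% of all genes, among them MCM8 at 0.40 ± 0.10 (edgeR adjusted p = 0.0346).

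The factors that turn a licensed origin into a fork moved with the licensing genes. With PRMT5i against DMSO 13 of 14 genes on the list were lower, against 18.3% of all genes tested, with a median log2 fold change of −1.17. CDC45 had −1.84 ± 0.08 (SE; edgeR adjusted p = 5.32e-10). CDC7, the kinase that acts on the loaded ring, gave −1.31 ± 0.14 (edgeR adjusted p = 2.69e-06), and DBF4, its activating subunit, gave −0.57 ± 0.18 (edgeR adjusted p = 0.0187). In the combination against PRMT5i 6 of 14 were higher, against 2.91% of all genes. Among them were CDC45 at 0.66 ± 0.08 (edgeR adjusted p = 4.88e-04) and CDC7 at 0.55 ± 0.14 (edgeR adjusted p = 0.0404), and DBF4, at 0.15 ± 0.18, did not pass. With EZH2i against DMSO 1 of 14 was higher, against 4.11% of all genes.

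Of the 13 genes that control licensing, 12 were tested, since GMNC had 0 counts in every library. With PRMT5i against DMSO 5 of 12 were lower and none higher, with a median of −0.19, against 18.3% of all genes tested called lower. DTL, the substrate receptor of the ligase that removes CDT1 in S phase, gave −1.49 ± 0.11 (SE; edgeR adjusted p = 5.66e-08), and FBXO5, an inhibitor of the anaphase-promoting complex, gave −0.97 ± 0.13 (edgeR adjusted p = 2.88e-05). SKP2, part of the other ligase that acts on CDT1, gave −0.13 ± 0.10 (edgeR adjusted p = 0.367). In the combination against PRMT5i 3 of 12 were higher, against 2.91% of all genes. DTL, at 0.53 ± 0.11 (edgeR adjusted p = 0.0136), and GMNN were among them, while FBXO5, at 0.39 ± 0.13, did not pass (edgeR adjusted p = 0.128).

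**Figure D4:**
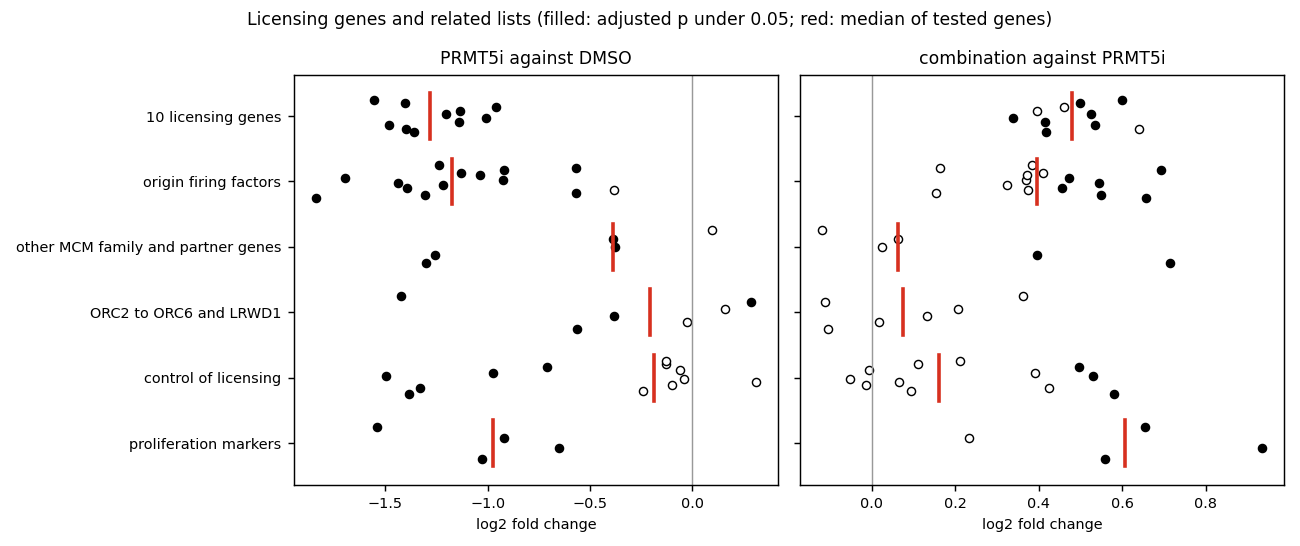
Log2 fold changes (x axis) of the 10 licensing genes and of 5 related lists for PRMT5i against DMSO and for the combination against PRMT5i, with 1 point per gene, filled where the edgeR adjusted p is under 0.05, and the median of each list in red. The licensing genes have medians of −1.28 and 0.48, the firing factors −1.17 and 0.40, and ORC2 to ORC6 with LRWD1 −0.21 and 0.07.

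Markers of dividing cells moved with PRMT5i and between the combination and PRMT5i. The summed level of MKI67, PCNA, TOP2A and CCNB1 was 609 to 692 CPM in combination libraries, 422 to 500 CPM with PRMT5i, 1020 to 1170 CPM with EZH2i and 941 to 1180 CPM in DMSO, and its part in the licensing results was not tested. All 4 were lower with PRMT5i than in DMSO, against 18.3% of all genes tested, with a median log2 fold change of −0.97. In the combination 3 of 4 were higher than with PRMT5i, against 2.91% of all genes. PCNA, the sliding clamp of DNA polymerase, gave −0.92 ± 0.12 (SE; edgeR adjusted p = 1.86e-05) for PRMT5i against DMSO and 0.23 ± 0.12 for the combination against PRMT5i (edgeR adjusted p = 0.382). MKI67, a nuclear protein gene of cycling cells, measured 49.8 to 61.5 CPM with PRMT5i, 150 to 192 CPM with EZH2i, and 50.2, 143, 79.6 and 71.3 CPM in DMSO. It gave −0.65 ± 0.21 for PRMT5i against DMSO (SE; edgeR adjusted p = 0.0262), and −0.29 without DMSO replicate 2 (edgeR adjusted p = 0.0922). With EZH2i against DMSO it was the 1 marker of the 4 that was called, at 0.93 ± 0.21 (edgeR adjusted p = 0.0169), with 1.28 without DMSO replicate 2 and 0.75 without DMSO replicate 1. The other 3 did not pass there, with −0.12 for PCNA, −0.11 for CCNB1 and 0.15 for TOP2A. The 8 markers of monocytes and macrophages summed to 250 to 294 CPM in the combination, 277 to 336 CPM with PRMT5i, 169 to 212 CPM with EZH2i and 175 to 201 CPM in DMSO. These sums do not describe every marker. Against DMSO 5 were called higher and 1 lower with PRMT5i, where 2824 of all 16555 genes were higher and 3023 lower. In the combination 4 were higher and 1 lower (2920 and 3070 of all genes), and with EZH2i 1 higher and 2 lower (681 and 578). The part of these markers in the licensing results was not tested either. The T cell marker CD3D averaged 3.92 CPM in the combination, 1.94 CPM with PRMT5i, 7.14 CPM with EZH2i and 4.19 CPM in DMSO. Its log2 fold change was −1.11 ± 0.16 for PRMT5i against DMSO (SE, edgeR adjusted p = 4.97e-05). For the combination against PRMT5i it was 1.01 ± 0.16 (edgeR adjusted p = 0.00244). NKG7, the only other gene of that list that was tested, went the other way in both comparisons. It gave 0.22 and −0.12 and did not pass, so the list as a whole did not follow CD3D. The part of CD3D in the licensing results was not tested.

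Levels were compared between genes per kilobase, since a longer transcript gives more fragments. Per kilobase of the principal transcript, the DMSO means were 127 ± 23.7 CPM for MCM4, 113 ± 9.05 for MCM7, 91.8 ± 10.2 for MCM3, 70.3 ± 10.2 for MCM2, 52.5 ± 6.89 for MCM5 and 43.2 ± 13.8 for MCM6 (SD, n = 4). The other 4 lay lower, with 20.6 ± 2.46 for MCM10, 17.5 ± 0.426 for ORC1, 16.7 ± 5.75 for CDT1 and 13.1 ± 1.16 for CDC6. In this order the libraries of most neighbours overlapped; those of MCM3 and MCM2, of MCM6 and MCM10, and of MCM10 and ORC1 did not. On this length every DMSO library of the 6 ring subunits lay above every one of the other 4 genes. The highest ring subunit exceeded the lowest by 2.58-fold in the combination, 2.47-fold with PRMT5i, 2.85-fold with EZH2i and 2.93-fold in DMSO. With all annotated exons as the length, MCM3 came first and MCM5 last of the 6 in DMSO, and the ratio was 3.19, so the order within the ring depends on the length used. The gap between the ring and the other 4 genes does too. With all exons the lowest DMSO library of MCM5, at 22.5 CPM per kilobase, lay below the highest of CDT1, at 24.2.

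The profile of the 10 genes over the 16 libraries, taken as their median, was compared with those of 9639 protein-coding genes that averaged 5 CPM or more, by the root mean square difference of centred log2 CPM. The median gene lay at 0.641 on this log2 scale. Outside the 10 genes the nearest were ASF1B, a histone chaperone, at 0.0962, TSC22D3, a glucocorticoid-induced gene, at 0.107, SPC24, a kinetochore subunit, at 0.11, GINS2, a subunit of the active helicase, at 0.112, and KIF2C, a kinesin that shortens microtubules, at 0.116. The 10 genes themselves enter the profile they are compared with, so their nearness to it is partly built in: MCM7 lay at 0.0884, and 6 of the 10 were among the first 50 genes. MCM6, at 0.274, and CDT1, at 0.277, were farthest, ranked 312 and 326, and these are the genes with the widest DMSO groups.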

How the data were processed

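Total RNA of MOLM-13 cells was sequenced as paired ends, per the labels' protocols. The file the authors deposited is a gene-by-library matrix of expected counts from RSEM, left unscaled. The notes name STAR 2.5.3 and RSEM as tools and GRCh38.p7 as the genome build, per the submitters' processing notes; the annotation, the settings, the strand setting and the RSEM version are not given in the sources used here. RSEM divides reads that match several genes, so 12.0% of the values are not whole, and they were rounded. The depth was 31.1 M to 52.9 M per library, and all 16 columns were used. No pair of libraries of a group agreed within sampling noise.

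The filterByExpr function of edgeR 4.0.16 kept 16555 genes. TMM factors scaled the libraries, and 1 quasi-likelihood model with 4 group means gave fold changes, standard errors (SE) and p-values, to which Benjamini-Hochberg adjustment over the 16555 genes was applied at a threshold of 0.05. The 95% intervals are approximate, the fold change ± 1.96 SE, and are narrower than the test implies. For MCM2 in the interaction the interval was 0.02 to 0.64, with an unadjusted edgeR p of 0.0527. The same steps were run on simulated counts with changes in PRMT5i libraries only and the same spread in every group. The DMSO group spread more here, so that run does not gauge the error of these results. Ratios of 2 genes used log2 CPM with a prior count of 2 and two-sided exact permutation tests over libraries, adjusted over 12 tests. Alternatives were DESeq2 1.42.0, library totals, no filter, only the groups compared, replicate blocks, each library left out and, chosen after seeing the data, DMSO replicates 1 and 2 left out together (for the markers of dividing cells also singly) and the principal transcript as the length. R 4.3.3, Python 3.11.15, numpy 2.4.6, scipy 1.17.1, pandas 2.3.3 and matplotlib 3.10.9 were used.

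The genes and the lists were chosen with earlier results of these data known. The text names all 10 licensing genes, GMNN, ORC2 to ORC6, MCM8, MCM9, MCMBP, CDC7, DBF4, CDC45, DTL, SKP2, FBXO5, PCNA and MKI67 whatever their change, and the 5 genes nearest to the shared profile. LRWD1, CD3D, NKG7, COL1A1, CCNB1 and TOP2A are named after their values were seen. Of 4 B cell markers 3 passed the filter, and the list summed to at most 1.33 CPM in any library. Gene positions and lengths are from GENCODE release 29 and promoter sequences from RefSeq. Protein sequences were not used here. Replicate numbers were checked for pairing: same-numbered libraries of different groups correlated in their deviations from the group means at −0.272 to 0.236, with a lowest value above 0.1 for no number, so they were not treated as pairs.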

Additional observations from a re-analysis of the deposited data

Results flagged for a closer look

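In 4 of 40 sets of 4 libraries, 1 library stood apart from the other 3 by more than Dixon's critical value at 95%, and chance alone flags about 1 in 20 such sets. Combination replicate 2 was low for MCM2, at 143 CPM against 157 to 160 CPM in the other combination libraries, and for MCM5, at 99.4 CPM against 114 to 116 CPM. Combination replicate 4 was high for MCM3, at 190 CPM against 183 to 184 CPM. EZH2i replicate 2 was low for MCM6, at 188 CPM against 216 to 222 CPM.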

How the results depend on the processing

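The number of licensing genes called was 10 under all settings for PRMT5i against DMSO and for the combination against EZH2i, and 0 for the interaction. For the combination against DMSO it was 9 to 10, also when single libraries were left out. For EZH2i against DMSO it was 2, with 3 in DESeq2, 1 with library totals, 0 with no filter on low counts, 0 with only the groups compared, 4 without both DMSO replicates 1 and 2, and 1 to 4 without single libraries. For the combination against PRMT5i it was 7, with 9 in DESeq2, 6 with no filter, 10 with only the groups compared, 10 without both DMSO replicates 1 and 2, and 4 to 9 without single libraries. Fits with a replicate block of 4 numbers or of 2 pairs left the counts at 10, 2, 10, 7, 10 and 0. Of 16 libraries 8 were closest to their own number, and whether chance gives as many was not tested. Over all genes the block of 2 pairs (replicates 1 and 2, replicates 3 and 4) raised the calls in every comparison. For EZH2i against DMSO they rose from 1259 to 1533, for the combination against PRMT5i from 688 to 908 and for the interaction from 48 to 69. Signs turned for small values: the interaction of CDT1 was −0.03134 without both DMSO libraries and −0.1508 (without DMSO replicate 2) to 0.2307 without single libraries, that of MCM6 −0.1401 (without DMSO replicate 2) to 0.2239. The EZH2i fold changes without single libraries were −0.009259 (DMSO replicate 2) to 0.1368 for MCM10, −0.0161 (DMSO replicate 3) to 0.09263 for CDC6, and −0.002677 (DMSO replicate 3) to 0.1322 for MCM3, with −2.669e-05 without EZH2i replicate 1. The cause was not tested. All 12 ratio results kept their call with a prior count of 0.5, which at the CPM of these genes could hardly move the ratios. Without single libraries the differences kept their sign, from −1.566 to −1.474 for ORC1 over ORC2 and from −0.908 to −0.385 for CDT1 over GMNN (PRMT5i against DMSO). Over all genes, the calls for EZH2i against DMSO were 1259, against 2149 in DESeq2, 135 with only the groups compared, 2418 without both DMSO libraries and 499 to 4591 without single ones; for the combination against PRMT5i 688, against 1064, 2099, 1358 and 263 to 1011; for the interaction 48, against 121 in DESeq2, 83 without both DMSO libraries and 28 to 124. With library totals, higher and lower calls were 855 and 289 for EZH2i (681 and 578 with TMM), 3897 and 2021 for the combination against DMSO (2920 and 3070), 3026 and 2560 for PRMT5i (2824 and 3023) and 748 and 121 for the combination against PRMT5i (482 and 206). The smallest change called among the licensing genes was 0.34 on the log2 scale.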
